A study of Mus musculus with 2 samples.

Results

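The receptors for ghrelin (Ghsr), leptin (Lepr), prolactin (Prlr), growth hormone (Ghr), insulin (Insr) and insulin-like growth factor 1 (Igf1r) were followed through the cell types of the mouse islet. These 6 genes were taken by symbol, before any filter, from 33038 genes that had a row in either library. The data came from RevGel-seq, a single-cell preparation in which cells are chemically coupled to barcoded beads and held in a reversible gel during lysis. The 2 libraries, called library 1 and library 2, were made from 10000 input cells each of islets labelled control, from C57BL/6J mice aged 8 weeks, male according to the methods of the study, which describe the libraries as technical replicates. How many mice were pooled is not given in the sources used here, so the spread between the libraries holds preparation and sequencing error and no spread between animals. Endocrine cells were grouped by which hormone transcripts reached 1% of the cell's transcripts, with insulin taken as Ins1 and Ins2 together.

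The islet is a mixed endocrine organ in which beta cells make insulin, alpha cells glucagon (Gcg), delta cells somatostatin (Sst) and gamma cells pancreatic polypeptide (Ppy), around a dense bed of capillaries. The ghrelin receptor is a G protein-coupled receptor that signals through Gq, phospholipase C and calcium release. The receptors for leptin, prolactin and growth hormone are class I cytokine receptors without an enzyme of their own, which act through JAK2 and STAT factors and are restrained by the SOCS proteins and CISH. The receptors for insulin and IGF1 are related tyrosine kinases that act through the IRS proteins, PI3 kinase and AKT. Prolactin and growth hormone are known for their part in the expansion of beta cells in pregnancy, and ghrelin for its action on somatostatin release in the islet.

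In all, 1483 cells were listed, 735 in library 1 and 748 in library 2, with 15931154 and 17440292 unique molecular identifiers (UMIs, each a transcript counted once). The median cell held 17340 UMIs in library 1 and 18922 in library 2, the shallowest cell held 4704, and the libraries shared 0 cell barcodes. Both libraries together held 372 insulin only, 356 Gcg only, 58 Sst only and 122 Ppy only cells, along with 151 cells with Gcg and Ppy and 148 with Sst and Ppy. These 6 groups made up 1207 cells. Another 93 cells carried other combinations of hormones and 183 carried none. Few cells lay near the 1% limit for insulin, Gcg or Sst (0 to 4 on either side in each library), but 16 and 11 lay just above it for Ppy and 17 and 11 just below. Levels are given as UMIs per 1000000 UMIs of a group in a library (CPM), and, where stated, per 1000000 UMIs left when the 5 hormone genes are taken out (non-hormone CPM), because hormone transcripts took 37.8% and 41.4% of all UMIs in insulin only cells but 9.56% and 10.1% in Sst only cells.

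The labels of the groups were checked on marker lists without the hormones themselves. Summed beta cell markers stood at 33570 and 32568 CPM in insulin only cells at 567 and 428 CPM in Gcg only cells and, between them, at 13651 and 13827 CPM in Sst only cells. Summed alpha cell markers stood at 35551 and 36287 CPM in Gcg only cells against 1070 and 1066 CPM in insulin only cells. Summed delta cell markers were highest in Sst only cells (6226 and 6100 CPM). The gamma cell list did not mark its group, with 876 and 915 CPM in Ppy only cells against 1638 and 1865 CPM in Sst only cells, so that group is called only by its hormone. Summed exocrine (acinar) markers ranged from 1.15 to 9.98 CPM in the 6 hormone groups.

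The promoters of Ghsr and Prlr are shown because each of these receptors was found mainly in cells of 1 hormone. Ghsr lies on chromosome 3 (GRCm38, chr3:27371351-27378010, plus strand) and Prlr on chromosome 15 (chr15:10177238-10349180, plus strand). Each line gives the 250 bases that end just before the first RefSeq start of the gene (GRCm38.p6, chr3:27371101-27371350 and chr15:10176988-10177237), 5′ to 3′, in lower case, with capitals for any match to a searched motif.
Ghsr: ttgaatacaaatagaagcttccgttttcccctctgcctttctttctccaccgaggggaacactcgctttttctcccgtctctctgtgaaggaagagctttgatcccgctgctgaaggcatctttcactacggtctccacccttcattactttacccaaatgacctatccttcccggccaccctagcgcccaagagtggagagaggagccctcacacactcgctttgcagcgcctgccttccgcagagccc
Prlr: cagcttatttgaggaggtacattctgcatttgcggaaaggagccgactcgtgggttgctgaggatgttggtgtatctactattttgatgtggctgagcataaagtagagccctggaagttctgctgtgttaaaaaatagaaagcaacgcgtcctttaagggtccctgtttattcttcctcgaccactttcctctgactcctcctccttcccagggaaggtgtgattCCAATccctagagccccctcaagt
The motifs searched on both strands were the TATA box (TATAAA, in 12.4% of the 32851 RefSeq promoter windows of this length), the CCAAT box (CCAAT, 33.8%), the GC box (GGGCGG, 32.7%), the cAMP response element (TGACGTCA, 1.55%) and its first letters (TGACG, 17.8%), the start of a MAF site (TGCTGAC, 3.81%) and a homeodomain core (TAATTA, 4.84%). The Ghsr window held none of these, 54.0% G and C, and 11 CpG pairs. The Prlr window held a CCAAT box that begins 24 bases before the start, 48.0% G and C, and 6 CpG pairs. Prlr has 2 further RefSeq starts inside the gene. The deposited counts give 1 value per gene and do not say from which start a transcript came.

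Ghsr transcripts were found in Sst cells and were at 0 in every insulin only and every Gcg only cell. In Sst only cells 18 UMIs were counted in library 1 and 25 in library 2, or 35.8 and 75.3 CPM (55.5 ± 28.0, SD, n = 2 libraries). In Sst and Ppy cells 63 and 56 UMIs were counted, or 50.1 and 43.0 CPM (46.6 ± 5.02, SD, n = 2). Both Sst groups lay above the other 4 of the 6 groups in both libraries, and their own ranges overlapped.

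Insulin only cells held 0 Ghsr UMIs among 8405988, and Gcg only cells 0 among 7265437. Against the floor of 3 counts over both libraries, the level in Sst only cells was at least 144-fold higher than in insulin only cells and at least 125-fold higher than in Gcg only cells. With the hormone limit at 5%, where cells with a lower Sst share count as insulin only or Gcg only, these groups held 22 and 6 Ghsr UMIs, and the ratios were 24.1 (15.3 to 39.7) and 87.5 (39.2 to 243). Ppy only cells held 1 and 4 Ghsr UMIs, and the 4 came from a single cell. Sst only cells were 45.8-fold above Ppy only cells, with a counting interval of 18.2 to 148 (95%, exact), and 26.5-fold at the 5% limit. Over all 1300 endocrine cells, those with Sst at or above 1% held 202 Ghsr UMIs and those without held 7, which is a ratio of 131 (62.4 to 330). Library 1 alone, with 1 UMI in cells without Sst, gave 405 (71.0 to 16173), and library 2 alone, with 6, gave 85.9 (38.2 to 239). These intervals and floors cover counting error only.

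Across the 12986 genes that passed the low-count filter, edgeR's quasi-likelihood test called Ghsr higher in Sst only cells than in insulin only cells (Benjamini-Hochberg adjusted p = 6.23e-09), than in Gcg only cells (4.77e-09) and than in Ppy only cells (log2 fold change 4.96 ± 0.62, SE, adjusted p = 1.38e-06), in both libraries each time. Ghsr passed that filter through the Sst groups alone, so a call for Sst over a group near 0 was fixed by the filter and is given as a description. The test also called Ghsr lower in insulin only and in Gcg only cells than in Ppy only cells (adjusted p = 0.0266 and 0.0351), on the 5 UMIs named above. The first of these calls was lost in 4 of 12 alternatives and the second in 5, among them thinning every cell to 4000 UMIs, which left no difference (log2 fold change 0, adjusted p = 1), and a hormone limit of 5%, which turned the first to 0.28.

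Within the Sst cells Ghsr was a rare transcript. A Ghsr UMI was seen in 11 of 35 and 11 of 23 Sst only cells and in 29 of 77 and 33 of 71 Sst and Ppy cells, and the cell with most held 9. When every cell was thinned to 4000 UMIs, 8.57% and 26.1% of Sst only cells and 15.6% and 14.1% of Sst and Ppy cells kept a UMI. No insulin only cell did, which allows up to 1.65% in library 1 and 1.58% in library 2 of cells with a Ghsr UMI at that depth and does not limit the cells that express it. Cells with 1 to 5% of their UMIs from Sst held 16.6 and 32.1 Ghsr CPM, those with 5 to 10% held 54.4 and 49.98 CPM, and those above 10% held 47.6 and 65.3 CPM. The lowest of these bins held 15 and 16 cells, and its level lay under those of both others in each library.

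The genes whose levels over the 12 sums (6 groups in 2 libraries) were most like Ghsr were F5, Rasgef1a, Hhex, Gpx1 and Ptprz1, with Pearson r from 0.990 to 0.996 on log2(CPM + 10), among 7144 genes. Hhex, a homeobox factor of delta cells, stood at 358 CPM in Sst only and 244 CPM in Sst and Ppy cells and under 5 CPM in the other groups. These likenesses are descriptions over sums that share 2 libraries.

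Lepr was nearly absent from the endocrine cells. Only 2 Lepr UMIs were counted in all 1300 of them, 1 in an insulin only cell and 1 in a Gcg only cell, both in library 1. No Sst cell held one. Lepr therefore did not pass the low-count filter, and none of the 8 comparisons of endocrine groups tests it. Thinned to 4000 UMIs, 0 endocrine cells kept a Lepr UMI, which allows up to 0.466% in library 1 and 0.457% in library 2 of cells with a Lepr UMI at that depth and does not limit the cells that express it.

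The other 127 Lepr UMIs lay in cells without a hormone. These cells were classed, by a rule set after the data had been seen, by the highest of 4 marker lists at 0.3% of UMIs or more, which gave 60 endothelial-marker, 77 leukocyte-marker, 9 stromal-marker and 19 ductal-marker cells and left 18 unclassed. Of the 183 cells, 24 lay near that limit (0.2 to 0.5%). Endothelial-marker cells held 22 and 44 Lepr UMIs, or 50.6 and 54.6 CPM (52.6 ± 2.85, SD, n = 2), in 14 of 27 and 18 of 33 cells. Leukocyte-marker cells held 0 in both libraries.

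The Lepr level in endothelial-marker cells was 787-fold that of all endocrine cells, with a counting interval of 210 to 6638. Library 1 alone gave 362-fold (89.1 to 3180), and library 2, with 0 Lepr UMIs in endocrine cells, at least 278-fold. In a fit with these cells as a further group, which was added after the data had been seen, Lepr passed the low-count filter only through these cells, where it is high, so no test is given for it. In that fit, against the mean of the 4 single-hormone groups, 55.2% of 13426 genes were called, 25.6% higher and 29.6% lower in endothelial-marker cells. Stromal-marker cells held more Lepr per UMI, 549 and 191 CPM, but these values rest on 7 and 2 cells, and 1 cell alone held 20 of the 56 UMIs of library 1.

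**Figure D1:**
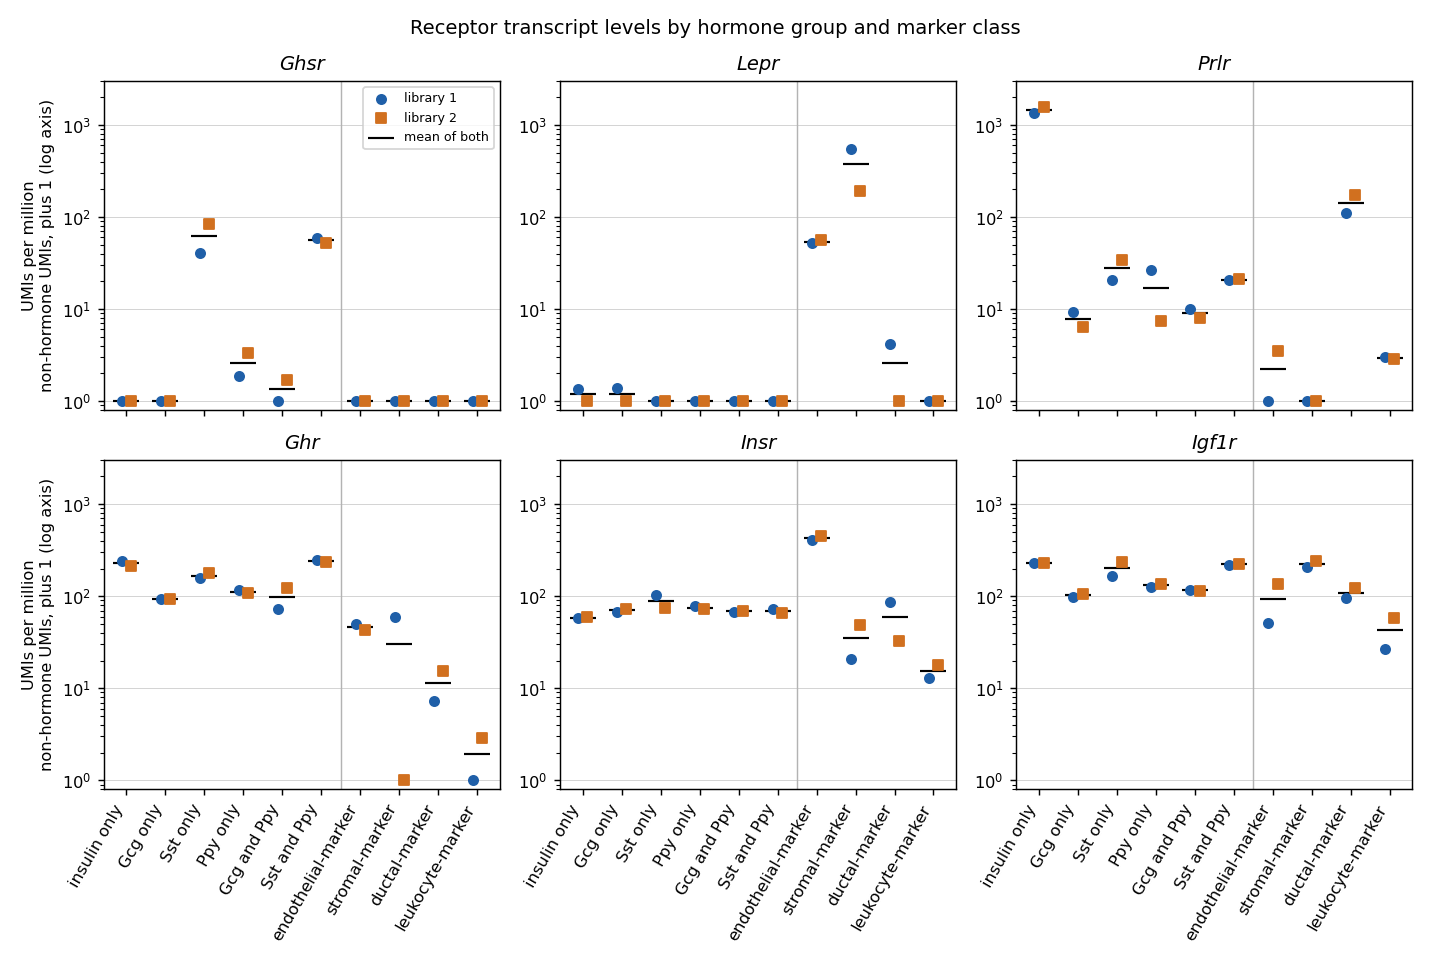
UMIs of each receptor per 1000000 non-hormone UMIs, plus 1 on a log axis, in the 6 hormone groups (left of the line) and 4 marker classes of cells without hormone (right), with 1 point per library and a bar for the mean of both. Ghsr stands up in the Sst groups, Lepr in endothelial-marker and stromal-marker cells, and Prlr in insulin only cells, whereas Ghr, Insr and Igf1r are present in all 6 hormone groups.

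Prlr was high in insulin cells and low in every other endocrine group. Insulin only cells held 3622 and 3726 Prlr UMIs, or 831 and 920 CPM (876 ± 62.7, SD, n = 2). Gcg only cells held 6.33 and 3.96 CPM (5.14 ± 1.67) and Ppy only cells 16.7 and 4.15 CPM (10.4 ± 8.86). Sst only cells held 17.9 and 30.1 CPM (24.0 ± 8.65), Sst and Ppy cells 16.7 and 16.9 CPM (16.8 ± 0.138), and Gcg and Ppy cells 6.42 and 5.17 CPM (5.80 ± 0.886). The insulin only level lay far above the rest in both libraries, the 2 Gcg groups overlapped each other, and the Ppy only range spanned from the level of the Gcg groups to that of the Sst and Ppy cells.

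Insulin only cells exceeded Gcg only cells by 7.77 ± 0.21 (SE) on the log2 scale (edgeR, adjusted p = 1.47e-21), Ppy only cells by 6.71 ± 0.21 (6.6e-20) and Sst only cells by 5.98 ± 0.26 (1.27e-16), in both libraries. These 3 calls held in all 12 alternatives. Counted directly on all UMIs, Prlr was 172-fold higher in insulin only than in Gcg only cells (124 to 244). Library 1 alone gave 131 (86.7 to 210) and library 2 alone 232 (141 to 416). These intervals cover counting error only, and the test leaves the hormones out of its scale. Among the groups without insulin, Sst only cells exceeded Gcg only cells (adjusted p = 0.0279, a log2 difference of 1.79 ± 0.57 with Gcg only lower), and Gcg only did not differ past the threshold from Ppy only cells (log2 fold change -1.06 ± 0.43, adjusted p = 0.093). The call between Gcg only and Sst only cells was lost in 4 of 12 alternatives and its direction turned with equal numbers of cells (0.57), and single cells weigh heavily there: 1 cell held 17 of the 22 Prlr UMIs of Gcg only cells in library 1, 1 held 15 of the 30 of Ppy only cells in library 1, and 1 held 7 of the 10 of Sst only cells in library 2.

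Nearly every insulin cell carried the transcript. A Prlr UMI was seen in 181 of 182 and 187 of 190 insulin only cells, with a median of 14.5 and 14 UMIs per cell and a highest of 144 and 157. At 4000 UMIs per cell the share was 88.5% and 85.8%, against 1.099% and 1.15% of Gcg only cells. Leukocyte-marker cells, which are not known as a source of insulin transcripts, gave a share of 2.56% and 0% at the same depth, and 2.56% and 2.63% of them had a Prlr UMI before thinning, at a median of 10437 and 11088.5 UMIs per cell, against 19642 and 17169.5 in insulin only cells.

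Insulin UMIs were also found at a low level in every group, at 0.198% and 0.168% of UMIs in Gcg only cells and 0.239% and 0.187% in leukocyte-marker cells. Set against those insulin UMIs, Gcg only cells held 3.20 and 2.35 Prlr UMIs per 1000 insulin UMIs, and insulin only cells 2.21 and 2.23. Sst only cells held 6.99 and 15.3, Sst and Ppy cells 7.17 and 8.02, Ppy only cells 9.39 and 2.95, and Gcg and Ppy cells 3.55 and 2.96. The ratio was above that of insulin only cells in all 5 of these groups in both libraries, by little in Gcg only cells of library 2. It was below in leukocyte-marker cells (0.831 and 0.990, on 1 Prlr UMI in each library) and endothelial-marker cells (0 and 1.72, on 0 and 2). Single cells weigh heavily: 1 cell held 77.3% of the Prlr UMIs of Gcg only cells in library 1. In Sst only cells of library 2 it was 70%, and in Ppy only cells of library 1 50%. The source of the Prlr UMIs in cells without insulin was not tested.

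In insulin only cells with 1 to 20% of their UMIs from insulin, Prlr stood at 366 and 328 non-hormone CPM. It stood at 754 and 751 in cells with 20 to 30%, at 1381 and 1605 with 30 to 40%, and at 1916 and 1756 with 40 to 50%. Above 50% the libraries parted, with 1288 in library 1 and 1954 in library 2. The pattern above 30% depends on the scale: in CPM of all UMIs the bins stood at 314 and 285, 561 and 546, 885 and 1026, 1069 and 976, and 569 and 883. The lowest bin held 9 and 5 cells, and the 4 insulin only cells without a Prlr UMI included 1 with 2.02% insulin and 1 with 59.6%. Both axes come from the same cells, so this is a description.

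**Figure D2:**
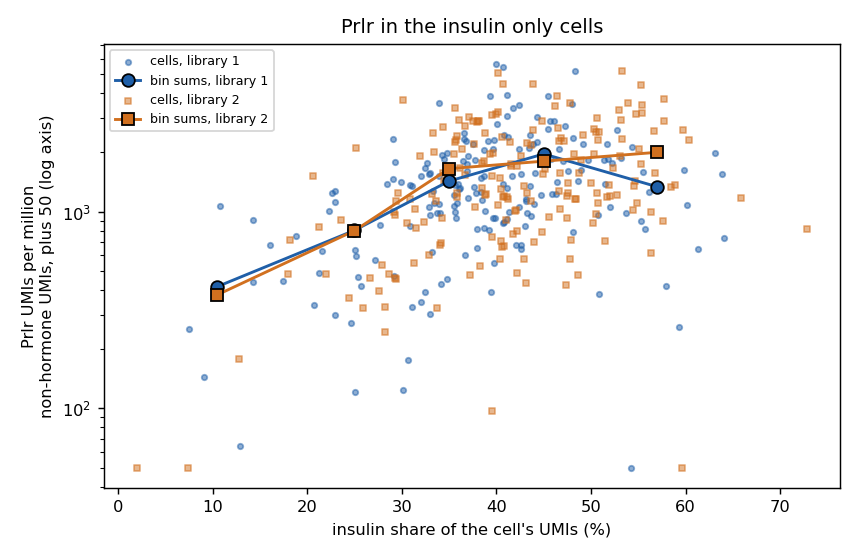
Prlr UMIs per 1000000 non-hormone UMIs, plus 50 on a log axis, against the insulin share of UMIs, for each of 372 insulin only cells (small points) and for the sums of 5 bins (large points joined by lines) in library 1 and library 2. The summed level is lowest in the bin up to 20% insulin and higher in each further bin up to 50%.

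Slc2a2, Sytl4, Trpm5, Dnajc24 and Ucn3 had the levels most like those of Prlr over the 12 sums (Pearson r from 0.974 to 0.983). Slc2a2, the main glucose transporter of mouse beta cells, stood at 419 CPM in insulin only cells and at most 5.51 CPM in the other groups, and Ucn3, a peptide of mature beta cells, at 326 CPM against at most 6.77 CPM. The Prlr row can hold reads of Gm21973, an annotated gene that overlaps it on the same strand.

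Ghr was present in all endocrine groups and was higher in insulin and Sst cells than in Gcg cells. It lies on chromosome 15 (chr15:3317760-3583492, minus strand). Insulin only cells held 148 and 126 CPM, Sst only cells 141 and 160 CPM and Sst and Ppy cells 210 and 196 CPM. Gcg only cells held 70.5 and 68.1 CPM, Ppy only cells 74.5 and 68.3 CPM, and Gcg and Ppy cells 52.0 and 91.0 CPM. The insulin and Sst groups all lay above the 3 others in both libraries, and the 3 others overlapped.

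Insulin only cells exceeded Gcg only cells in Ghr 2.52-fold (log2 fold change 1.33 ± 0.13, SE, edgeR adjusted p = 3.97e-09) and Ppy only cells 2.14-fold (1.09 ± 0.14, 6.84e-07). Sst only cells exceeded Gcg only cells 1.67-fold (adjusted p = 0.00643), and this call was lost in 3 of 12 alternatives. Sst only and Ppy only cells were not called different (log2 fold change 0.50 ± 0.20, adjusted p = 0.0918).

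Insulin only cells were also called higher than Sst only cells in Ghr (log2 fold change 0.59 ± 0.18, adjusted p = 0.0172), but that direction depends on the scale. The log2 fold change was -0.12 when levels were scaled to all UMIs with the hormones left in. This comparison passed the threshold in 8 of 12 alternatives, with adjusted p up to 0.646. In non-hormone CPM the values were 238 and 214 in insulin only cells and 156 and 178 in Sst only cells. At 4000 UMIs per cell, hormones included, a Ghr UMI was seen in 40.1% and 30.5% of insulin only, 48.6% and 39.1% of Sst only, 54.5% and 54.9% of Sst and Ppy and 22.5% and 23.6% of Gcg only cells. Sst and Ppy cells stood above Sst only cells in both libraries, and this difference was not called (log2 fold change 0.55 ± 0.19, adjusted p = 0.525).

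Ghr stood at 48.3 and 42.2 CPM in endothelial-marker cells, which was below the mean of the single-hormone groups in the added fit (log2 fold change -1.39 ± 0.21, edgeR adjusted p = 5.59e-06). In leukocyte-marker cells only 0 and 1 UMIs were counted. The genes most like Ghr over the 12 sums were Casc4, Pigq, Selenom, Zfp92 and Elovl5 (Pearson r from 0.946 to 0.961).

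Igf1r was higher in insulin and Sst cells than in Gcg cells. It lies on chromosome 7 (chr7:67952827-68233668, plus strand). Insulin only cells held 143 and 133 CPM, Sst only cells 149 and 211 CPM and Sst and Ppy cells 185 and 190 CPM. Gcg only cells held 73.9 and 78.4 CPM, Ppy only cells 81.2 and 86.8 CPM, and Gcg and Ppy cells 83.5 and 84.3 CPM. The order in non-hormone CPM was insulin only (228 ± 2.68, SD, n = 2), Sst and Ppy (221 ± 6.42), Sst only (200 ± 49.4), Ppy only (130 ± 6.64), Gcg and Ppy (115 ± 2.21) and Gcg only (102 ± 5.16). The Sst only range took in the levels of both groups above it, and the last 3 groups lay below the first 3 and apart from each other in both libraries.

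Igf1r was 2.31-fold higher in insulin only than in Gcg only cells (log2 fold change 1.21 ± 0.12, SE, edgeR adjusted p = 1.64e-09), 1.82-fold higher than in Ppy only cells (adjusted p = 2.6e-06), and was not called against Sst only cells (0.37 ± 0.15, adjusted p = 0.0863). That last value was -0.35 with the hormones left in the scaling. Sst only cells exceeded Gcg only cells 1.79-fold (adjusted p = 0.000307) and Ppy only cells 1.41-fold (adjusted p = 0.0434). The call against Ppy only cells was lost in 6 of 12 alternatives and that against Gcg only cells in 2.

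In endothelial-marker cells the libraries differed for Igf1r, with 50.6 CPM in library 1 and 135 CPM in library 2, where 1 cell held 32 of 109 UMIs. The genes most like Igf1r were Tmem132b, Npnt, Erp29, Rab22a and Selenom (Pearson r from 0.977 to 0.983), of which Tmem132b, a membrane protein, stood at 199 CPM in Sst only, 183 CPM in Sst and Ppy and 59.7 CPM in insulin only cells, and under 10 CPM elsewhere. Selenom was among the 5 genes most like each of Ghr and Igf1r.

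Insr was present in all 6 hormone groups without a called difference between them and stood higher in endothelial-marker cells. It lies on chromosome 8 (chr8:3122061-3279617, minus strand). Insulin only cells held 35.4 and 34.3 CPM, Gcg only cells 50.6 and 53.1 CPM, Ppy only cells 49.5 and 46.4 CPM, Gcg and Ppy cells 47.5 and 51.2 CPM, Sst and Ppy cells 61.2 and 53.8 CPM and Sst only cells 93.4 and 66.3 CPM. Insulin only cells lay below all the others in both libraries, and the Sst only range lay above all of them. In non-hormone CPM the insulin only level (56.8 and 58.5) was closer to that of Gcg only cells (67.0 and 71.2).

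None of the 8 comparisons called Insr. The nearest were insulin only against Sst only cells (log2 fold change -0.52 ± 0.21, SE, edgeR adjusted p = 0.083) and insulin only against Ppy only cells (-0.30 ± 0.16, adjusted p = 0.168), and the value against Gcg only cells was -0.22 (95% interval -0.52 to 0.07, adjusted p = 0.273). With levels scaled to all UMIs, Insr was called lower in insulin only than in Gcg only (-0.57, adjusted p = 0.00366), Ppy only (-0.46, 0.0388) and Sst only cells (-1.23, 7.16e-05). That scaling moved the median of all genes by -0.37, -0.15 and -0.72 in those comparisons.

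The Sst only value of Insr in library 1 stood beside a high level of endothelial markers. All 10 genes of the endothelial list were detected there, with a summed level of 614 CPM, against 51.2 CPM in library 2. The list stood at 35.6 to 202 CPM in Gcg only and Ppy only cells and at 136 and 21.7 CPM in insulin only cells. In Sst and Ppy cells it stood at 323 and 63.7 CPM, where Insr was at 61.2 and 53.8 CPM. Of the 47 Insr UMIs of Sst only cells in library 1, 1 cell held 11. The cause of the Insr value was not tested. With the 2 cells there that carried endothelial or leukocyte markers left out, Insr in Sst only cells of library 1 was 72.6 CPM in place of 93.4, still above 66.3 CPM in library 2. With such cells left out of every group, an alternative added after the data had been seen, the log2 fold change of Gcg only against Sst only cells went from -0.30 to -0.09.

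Endothelial-marker cells held 178 and 359 Insr UMIs, or 409 and 446 CPM (427 ± 25.7, SD, n = 2), and an Insr UMI was seen in 25 of 27 and 33 of 33 of them. In the added fit they exceeded the mean of the single-hormone groups 7.10-fold (log2 fold change 2.83 ± 0.11, SE, edgeR adjusted p = 3.41e-16). Leukocyte-marker cells held 11.9 and 16.7 CPM. At 4000 UMIs per cell 59.3% and 66.7% of endothelial-marker cells had an Insr UMI, against 13.7% and 13.2% of insulin only cells. Among the genes most like Insr over the 12 endocrine sums were Cplane1, Prxl2c, Gfm2 and Smurf2 (Pearson r from 0.963 to 0.974). Vmn2r-ps88 and Gm16180 overlap Insr on the other strand.

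**Figure D3:**
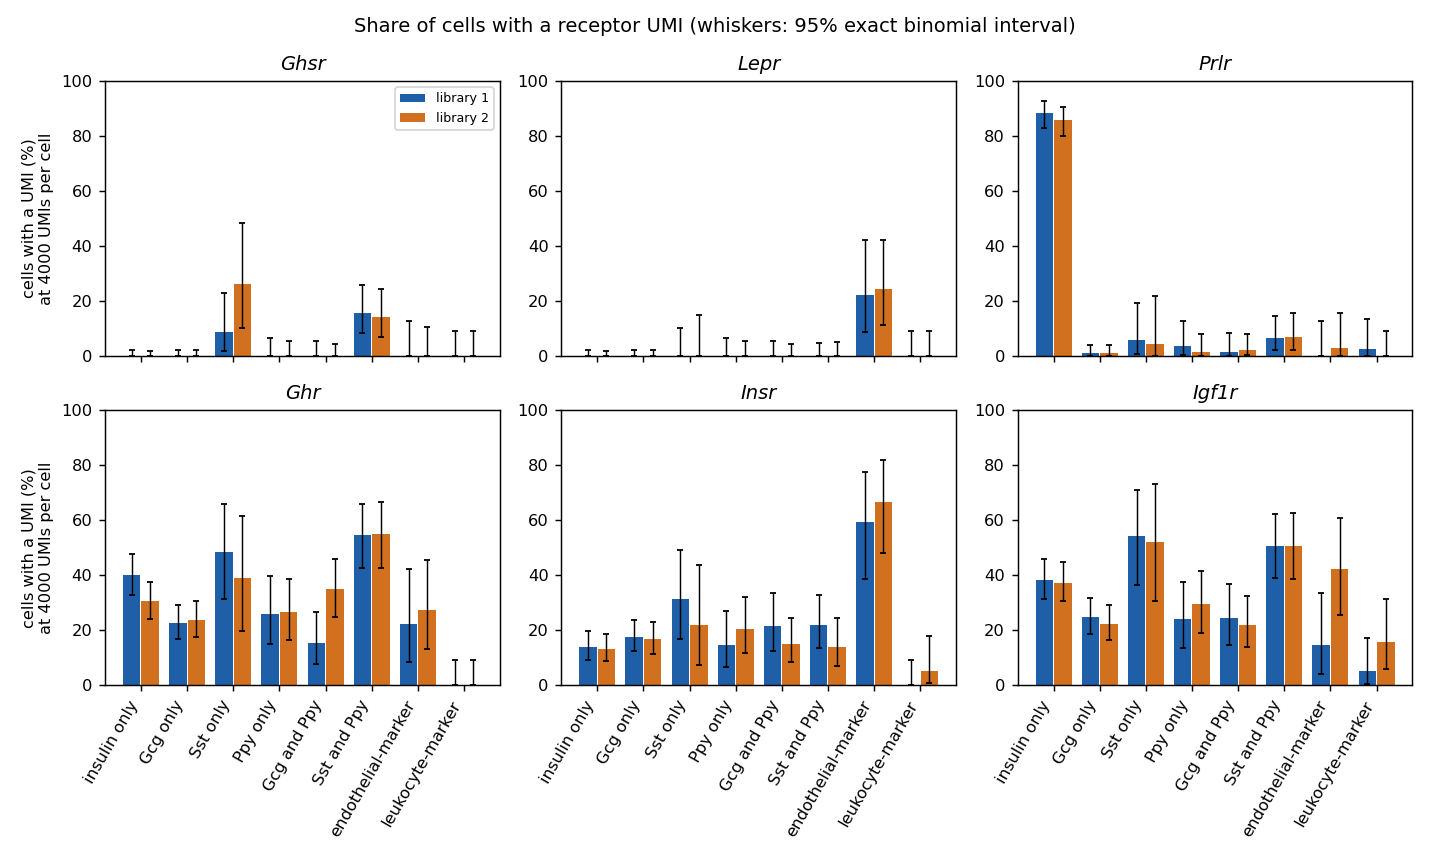
Share of cells with at least 1 UMI of each receptor after every cell was thinned to 4000 UMIs, by group and library, with exact 95% binomial intervals as whiskers. Prlr reaches 88.5% and 85.8% of insulin only cells and Insr 59.3% and 66.7% of endothelial-marker cells, while Ghsr and Lepr stay under 30% in every group plotted.

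Seen by comparison, insulin only against Gcg only cells called 3 of the 5 tested receptors (Prlr, Ghr and Igf1r, all higher with insulin), where 36.0% of all genes tested were called, 18.2% higher with insulin and 17.8% higher in Gcg only cells. Insulin only against Sst only cells called 3 (Prlr and Ghr higher, Ghsr lower), where 21.0% of all genes were called, 10.8% higher with insulin and 10.3% higher in Sst only cells. Insulin only against Ppy only cells called 4 (Prlr, Ghr and Igf1r higher, Ghsr lower), where 30.3% were called, 15.4% higher with insulin and 14.9% higher in Ppy only cells. Gcg only against Sst only cells called 4, all higher in Sst only cells (Ghsr, Prlr, Ghr and Igf1r), where 18.0% were called, 8.43% higher in Gcg only and 9.53% higher in Sst only cells. Gcg only against Ppy only called Ghsr alone, higher in Ppy only cells, where 17.8% were called, 8.61% higher in Gcg only and 9.18% higher in Ppy only cells. Sst only against Ppy only cells called Ghsr and Igf1r, both higher in Sst only cells, where 14.5% were called, 7.68% higher in Sst only and 6.83% higher in Ppy only cells. With levels scaled to all UMIs, the genes called in these 6 comparisons split 1305 higher against 4650 lower, 444 against 5355, 1464 against 2654, 534 against 2601, 2035 against 708 and 3855 against 321, where those of the main test were 2363 against 2317, 1396 against 1333, 2004 against 1931, 1095 against 1237, 1118 against 1192 and 997 against 887. These comparisons share groups of cells. Each count that includes Ghsr on the Sst side holds a call that the filter fixed, and is 1 lower without it.

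No receptor was called between cells with a second hormone and their partners. Gcg and Ppy cells against Gcg only cells called 0 of the 5 tested receptors by edgeR, where 0.400% of all genes were called (0.277% higher and 0.123% lower in Gcg and Ppy cells), with 0 at an unadjusted p under 0.05 and 0 by DESeq2. Sst and Ppy cells against Sst only cells called 0 by edgeR, where 0.0308% were called (0.0231% higher and 0.00770% lower in Sst and Ppy cells). Ghr in that comparison had an unadjusted p of 0.00652 and was the only receptor under 0.05, and DESeq2 called 0 there too. With 58 Sst only cells, 95% intervals were wide, from -0.92 to 0.72 on the log2 scale for Ghsr.

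**Figure D4:**
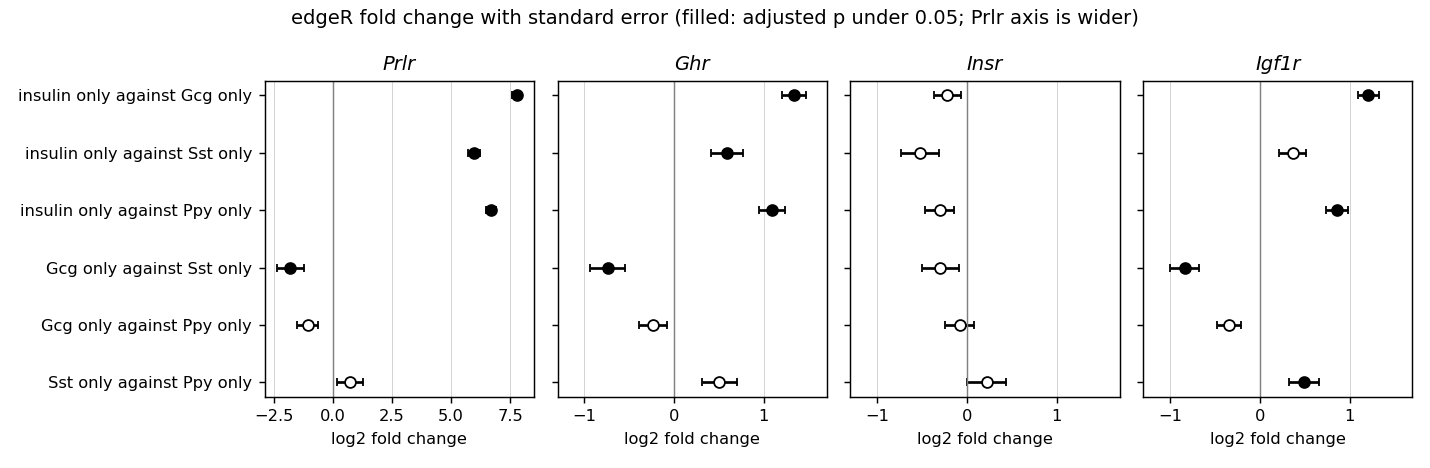
Log2 fold change, first group minus second, with its standard error from edgeR for 4 receptors in the 6 comparisons of single-hormone groups. Filled points passed an adjusted p of 0.05, and the axis for Prlr is wider than the others. Prlr values for insulin only cells lie from 5.98 to 7.77, Ghr and Igf1r values from -0.84 to 1.33, and no Insr point is filled.

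Other genes of the pathways were taken from a list of 84, of which 57 were tested and 34 were called in at least 1 comparison. Insulin only against Gcg only cells called 18 higher and 10 lower, 49.1% of the 57 against 36.0% of all genes tested. Against Sst only cells insulin only cells had 11 higher and 5 lower (28.1% against 21.0%), and against Ppy only cells 9 higher and 6 lower (26.3% against 30.3%). Gcg only against Sst only cells called 3 higher and 5 lower (14.0% against 18.0%), Gcg only against Ppy only 9 higher and 8 lower (29.8% against 17.8%), and Sst only against Ppy only 7 higher and 4 lower (19.3% against 14.5%). Some of these calls rest on few cells. Igfbp3 in Sst only cells had 53 UMIs in library 1, all in at most 3 cells, and 0 in library 2. For Igfbp5, 3 cells held 97.0% of the UMIs of Gcg only cells in library 2. None of the 6 ligands on the list was tested: Lep and Prl had no row in either table, and Ghrl, Gh, Igf1 and Igf2 did not pass the low-count filter.

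Around the prolactin and growth hormone receptors, of 8 tested JAK-STAT genes, insulin only against Gcg only cells called 1, Sh2b1, an adaptor of JAK2, lower with insulin. Of 12 tested inhibitors the same comparison called 5 higher (Socs2, Cish, Ptpn1, Ptpn6 and Ptpn11) and 2 lower (Grb10 and Socs3), where 36.0% of all genes were called. Insulin only against Ppy only cells called 2 of the 8 and 3 of the 12, where 30.3% were called. Socs2, which restrains growth hormone signalling and is known to be induced by it, stood at 56.0 and 49.1 CPM in insulin only cells and at 24.2 and 22.4 CPM in Gcg only cells. Sst only cells held 35.8 and 45.2 CPM of Socs2 and were called lower than insulin only cells (edgeR adjusted p = 0.00139). Their Ghr level was 141 and 160 CPM, against 148 and 126 CPM in insulin only cells. On the scale of the test Ghr was also higher in insulin only cells. Ppy only cells, with Ghr near that of Gcg only cells, were called lower in Socs2 than insulin only cells too (5.37e-08). Socs2 is named here after its values were seen, and its relation to Ghr was not tested. Of the prolactin targets on the list, Ccnd2, a cyclin of the G1 phase, stood at 2320 and 2303 CPM in Gcg only cells and 867 and 981 CPM in Ppy only cells (log2 fold change 1.12 ± 0.09, SE, edgeR adjusted p = 1.18e-10). Insulin only cells held 1727 and 1668 CPM, which was called above Sst only (adjusted p = 2.5e-08) and Ppy only cells (1.92e-10) and was not called against Gcg only cells. In non-hormone CPM, nearer to the scale of the test, insulin only cells stood at 2777 and 2845 and Sst only cells at 1595 and 1794.

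Around the insulin and IGF1 receptors Insrr, Grb10 and Irs2 had large differences between groups. Insrr, the insulin receptor-related receptor, stood at 223 and 217 CPM in insulin only, 135 and 90.4 CPM in Sst only, 24.4 and 24.0 CPM in Gcg only and 15.0 and 9.82 CPM in Ppy only cells. Insulin only cells exceeded Gcg only cells in Insrr 11.6-fold (edgeR adjusted p = 6.57e-16), and Sst only cells exceeded Ppy only cells 6.56-fold (adjusted p = 1.33e-07). Grb10, an adaptor that binds and inhibits both receptors, was low in insulin only cells, at 14.7 and 12.8 CPM. Gcg only cells held 199 and 216 CPM (log2 fold change -3.56 ± 0.16 for insulin only minus Gcg only, adjusted p = 7.06e-17) and Ppy only cells 94.5 and 101 CPM. Both Grb10 and Insrr were called higher in Gcg only than in Ppy only cells (edgeR adjusted p = 9.63e-06 and 0.0454). Irs2, a substrate of both receptors, was highest in Ppy only cells among the 6 groups, at 207 and 263 CPM against 52.3 and 43.7 CPM in insulin only cells (log2 fold change -2.15 ± 0.13, adjusted p = 8.95e-14). Igfbp7 was higher in Gcg only than in Ppy only cells (256 and 205 against 73.9 and 62.7 CPM, edgeR adjusted p = 1.23e-08). Socs3 was also called higher there (49.5 and 24.5 against 11.7 and 20.8 CPM, adjusted p = 0.0296), but on the scale of the test the libraries parted. With the hormones left out, library 2 held 93 Socs3 UMIs among 2782328 in Gcg only and 55 among 1683380 in Ppy only cells, which are nearly equal levels.

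Downstream of the ghrelin receptor, insulin only and Sst only cells differed in calcium release channels and a phospholipase. Itpr1, a receptor for the messenger IP3, stood at 380 and 361 CPM in Sst only cells against 53.0 and 61.0 CPM in insulin only cells (log2 fold change -1.99 ± 0.14 for insulin only minus Sst only, SE, edgeR adjusted p = 6.41e-12), and at 339 and 296 CPM in Gcg only cells. Itpr2, a related channel, went the other way, at 50.7 and 53.6 CPM in insulin only cells against 3 UMIs in library 1 and 0 in library 2 in Sst only cells. Plcb4, a phospholipase C, stood at 193 CPM in Sst only cells of either library and at 57.6 and 60.5 CPM in insulin only cells (log2 fold change -0.99 ± 0.16 for insulin only minus Sst only, edgeR adjusted p = 2.39e-05). Gcg only cells held 73.9 and 68.4 CPM of it, also called lower than Sst only cells (adjusted p = 7.53e-06).

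**Figure D5:**
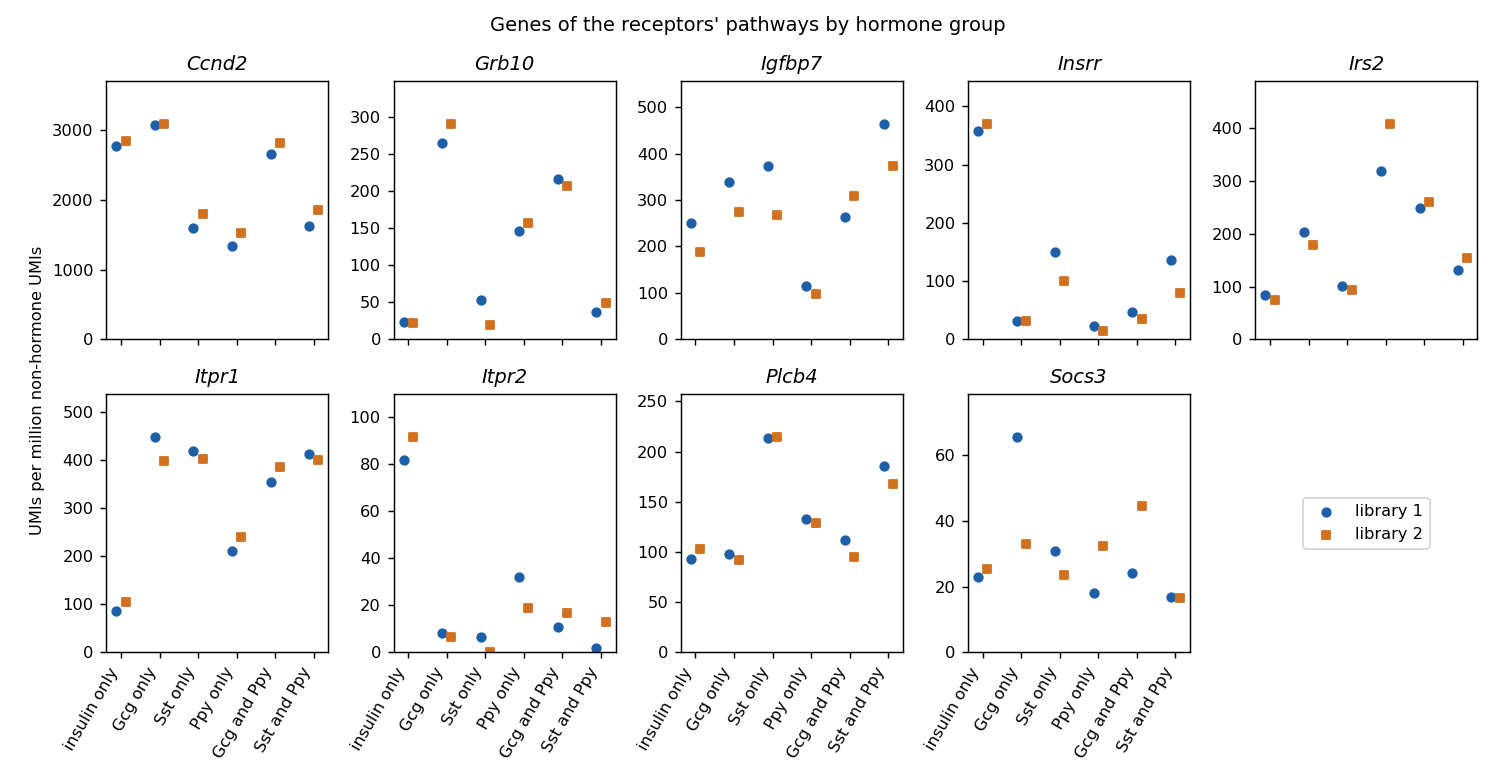
UMIs per 1000000 non-hormone UMIs of 9 pathway genes in the 6 hormone groups, with 1 point per library and an axis from 0 in each panel. Insrr and Itpr2 are highest in insulin only cells, Grb10 in the Gcg groups, Irs2 in Ppy only cells and Plcb4 in the Sst groups.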

How the data were processed

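Each of the 2 libraries came with a table of whole-number UMI counts, genes by cell barcodes, deposited by the authors with no normalization. According to the methods and the submitters' processing notes, barcodes were separated from background with UMI-tools, reads were aligned to GRCm38 and UMIs were counted on exons in the Cytonaut pipeline. Exon counting and capture at the poly(A) tail give 1 value per gene, not per isoform, and leave out unspliced reads.

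The members, gene lists and limits were chosen with earlier results of these data known. Cells were grouped by hormone transcripts at 1% of UMIs or more. Counts were summed per group and library, which gave 12 sums, and the 5 hormone genes were left out because they define the groups. edgeR 4.0.16 (quasi-likelihood test, TMM, filterByExpr, Benjamini-Hochberg over 12986 genes, threshold 0.05) was the main test and DESeq2 1.42.0 an alternative. The fit had 6 residual degrees of freedom. The spread is between 2 technical replicates, so p-values do not cover animals, and an exact permutation of 2 against 2 libraries cannot go below 0.333. Depth was 15931154 and 17440292 UMIs. Doublets called by Scrublet (8 in each library) were kept and left out as an alternative.

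The genes named with each receptor were the 5 with the highest Pearson r over the 12 sums on log2(CPM + 10), among genes with a mean of 20 CPM or more, where these CPM include the hormones. One gene so chosen is not reported here. The pathway genes named were up to 3 per comparison, those called with the largest fold change among genes at 20 CPM or more in the higher group in both libraries. Libraries share a number because each is 1 preparation, and deviations of same-library sums correlated between -0.0458 and 0.0735 over 15 pairs of groups. Scripts were tested on simulated counts. Alternatives covered scaling, the low-count filter, the hormone limit, thinning, equal cell numbers, doublets, a replicate block and leaving out a library.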

Additional observations from a re-analysis of the deposited data

Results flagged for a closer look

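The 93 cells with combinations of hormones other than Gcg and Ppy or Sst and Ppy were not part of the comparisons. Ghsr stood at 20.3 CPM over both libraries in cells with insulin and Sst (7 and 16 UMIs), where insulin only cells held 0, and at 20.8 CPM in cells with Gcg and Sst (7 and 10 UMIs), where Gcg only cells held 0. Prlr stood at 532 CPM in cells with insulin and another hormone, above the endocrine cells without insulin (11.4 and 6.51 CPM). Of all cells called as doublets, 5 in library 1 and 7 in library 2 carried several hormones, and the part of doublets in these values was not tested.

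Among cells without hormone, Lepr stood at 488 CPM in stromal-marker cells, above the endocrine cells, on 9 cells. Prlr stood at 142 CPM in ductal-marker cells (35 and 59 UMIs in 4 of 9 and 8 of 10 cells), above leukocyte-marker cells (1.99 and 1.85 CPM).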

How the results depend on the processing

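Of 17 called fold changes of the receptors, all 17 kept direction and call under DESeq2, RLE size factors, doublets left out and the replicate block, which changed no call. Over 238 alternative values 197 kept both, 25 lost the call and 13, with a library left out, moved. The 17 include the Ghsr calls of Sst only over insulin only, Gcg only and Ppy only cells, which the filter fixed. Those calls held in all 12 tested alternatives of each comparison and count among the values that kept both. Reversed were Ghr between insulin only and Sst only cells (-0.12, all UMIs as scale), Ghsr between insulin only and Ppy only cells (0.28, hormone limit 5%) and Prlr between Gcg only and Sst only cells (0.57, equal cell numbers); the cause was not tested. Receptors called between Gcg only and Sst only cells fell from 4 to 1 (limit 0.5%), 2 (thinned) and 1 (equal numbers). Between Gcg only and Ppy only cells 1 became 2 (no filter) or 0 (thinned, equal numbers, cells without hormone added). The receptor called there also changed: Ghsr was called in 7 of 12 alternatives, Prlr in 2 and Igf1r in 1. Between Sst only and Ppy only cells 2 became 4 (all UMIs as scale) or 1 (no filter, limit 0.5%, thinned, equal numbers, cells without hormone added, marker cells left out). In both comparisons with Sst only cells, Ghsr, whose call in the main test the filter fixed, was called in all 12 alternatives. Where 1 call is left in these 2 comparisons, it is Ghsr, and no other receptor kept its call there.

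Ghsr in Sst only cells was 24.2 CPM at a limit of 0.5% (55.5 at 1%). Prlr in insulin only cells was 1453 non-hormone CPM. Ghr in Sst and Ppy cells was 239 non-hormone CPM, and 189 and 220.0 CPM at limits of 0.5% and 5% (203 at 1%). Igf1r there was 221 non-hormone CPM and 159 CPM at 5% (187 at 1%). The values of both genes at 5% rest on 8 cells in library 1 and 5 in library 2. In these, Ghr stood at 103 and 337 CPM and Igf1r at 175 and 142 CPM. Shares of cells with a UMI move with depth by construction. With no thinning, 2000 and 6000 UMIs they were 20.8%, 7.64% and 12.0% for Lepr in cells without hormone, 98.9%, 73.7% and 92.7% for Prlr in insulin only cells, 87.8%, 33.6% and 70.6% for Ghr and 83.7%, 31.7% and 57.3% for Igf1r in Sst and Ppy cells, and 52.4%, 16.4% and 38.3% for Insr in cells without hormone. Ghsr in Sst only cells had 39.6% with no thinning.

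Over all genes, the counts of calls in the 8 comparisons, in the order of the report (4680, 2729, 3935, 2332, 2310, 1884, 52 and 4), were 2135, 1048, 1261, 945, 638, 551, 18 and 2 when cells were thinned, and 1274, 1063, 1201, 1023, 516 and 850 in the first 6 with equal numbers. With all UMIs as scale 2729 became 5799 and 1884 became 4176. Gcg only against Ppy only cells had 1415 by DESeq2 and 1419 with cells without hormone added. The pair of comparisons within Gcg and within Sst cells ranged from 6 to 190 and from 2 to 58 over the alternatives that moved them (7 within Sst cells with the replicate block). Leaving out a library leaves 1 sum per group, a value with no test.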
